A study of Mus musculus with 24 samples.

Results

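The 7 genes of shelterin (Terf2ip, Terf2, Terf1, Tinf2, Acd, Pot1a and Pot1b), the complex that coats mammalian telomeres, were followed across liver, brain, heart and muscle of wild-type mice and of mice with a point mutation in one of them. Members were all non-control probes of the array whose transcript accession belongs to these genes, which gave 11 probes for the 7 genes, of 21368 named genes on the array. Terf2 had 3 probes, Terf2ip and Tinf2 had 2 each, and every other member had 1. The probe with the highest mean level over all 24 arrays represents a gene below, and the other probes are given beside it.

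The animals were male, 3 WT and 3 homozygous for the Rap1 I312R knock-in allele (Rap1 KI/KI, labelled RAP1 MUT), from a line made with CRISPR/Cas9 and backcrossed to C57BL/6N by the study's methods (C57BL6 in the labels). Each of the 6 mice gave all 4 tissues, so that each group held 3 arrays. In either genotype, mouse 1 was 5 months old and mice 2 and 3 were 2 months old. The mutation was placed where RAP1, the product of Terf2ip, contacts TRF2, and it is present in the germline, hence in every cell of each tissue. Whole tissue was used, so that fewer cells of a type and less RNA per cell cannot be told apart. RNA of heart and muscle was extracted with another kit than RNA of liver and brain, and that difference cannot be told apart from the tissue.

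Shelterin distinguishes chromosome ends from DNA breaks. TRF1 (Terf1) and TRF2 (Terf2) bind the double-stranded telomeric repeat as dimers, RAP1 rides on TRF2, and TIN2 (Tinf2) bridges TRF1, TRF2 and TPP1 (Acd). TPP1 in turn carries POT1, which covers the single-stranded overhang and is encoded in mice by Pot1a, which restrains the ATR kinase, and Pot1b, which limits resection of the 5′ end. TRF2 suppresses ATM signalling and end fusion, and RAP1, apart from its telomeric place, has been described in the cytoplasm and at genes away from telomeres.

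The allele is shown because it defines the groups. The guide RNA and the single-stranded repair donor are given 5′ to 3′ as the labels hold them, with capitals at the guide bases that differ between the pair:
guide: gaactgccattaaggtgATC
donor: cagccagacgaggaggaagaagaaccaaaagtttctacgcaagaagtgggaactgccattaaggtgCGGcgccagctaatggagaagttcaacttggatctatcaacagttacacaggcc
Counted from 1 at the 5′ end of the guide, the donor carries A18C, T19G and C20G, which exchange the isoleucine codon for one of arginine (I312R). The labels mention a further changed base, which lies outside the guide and was not located here. The changes touch single bases of the Terf2ip transcript. No probe sequence was used, so whether a Terf2ip probe covers these bases is not known. Levels of the Terf2ip probes are therefore not read as a check of the genotype labels.

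Levels are log2 intensities relative to the 75th percentile of the probes on the same array, so that 0 is the level of that percentile and 1 unit is a 2-fold difference. They compare one probe between samples and never one gene with another. The 75th percentile lay between 471 and 1389 intensity units, and 56.5% to 72.7% of probes were well above background on an array. The tissues carried their own markers: 5 liver markers summed to 10.28 to 11.06 in liver and to at most 6.78 elsewhere, 5 heart markers to 10.50 to 11.41 in heart and to at most 2.53 elsewhere. The muscle array of mouse KI3 also held the astrocyte transcript Gfap at 1.94, which was at -2.60 or below on the other muscle arrays, and the neuronal transcript Slc17a7 at -0.44 against -4.94 or below, and its 5 brain markers, of which 4 were measured, summed to 5.32 against 3.71 to 4.27. The summed level of 5 fat markers was 7.38 and 8.50 in the hearts of KI1 and KI3 against 0.11 to 5.14 in the other hearts. All 10 probes other than that of Pot1b were well above background on all 24 arrays, and none was saturated.

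Shelterin transcripts differed between tissues in both genotypes. In a limma F test over the 4 tissues, 6 of the 7 members passed an adjusted p of 0.05 in WT mice on their representative probes, beside 81.8% of all 40757 probes tested. Terf2ip passed on its other probe only (adjusted p = 0.0308). In Rap1 KI/KI mice all 7 passed, beside 86.7% of 41231 probes. Both counts include Pot1b, which was well above background on no WT heart array and on no muscle array of either genotype. The members' tissue means spanned a median of 1.62 log2 units in WT and 1.73 in Rap1 KI/KI mice, against 2.25 for all tested probes in either genotype. The shares of members are near those of the array as a whole and single out no property of the complex. The members did not share a pattern, as the plot of levels by tissue shows. In both genotypes the highest mean was in liver for Terf1, Tinf2 and Pot1a, and in brain for Acd, where brain and liver were not told apart. The highest tissue of Terf2 and Terf2ip depended on the probe, and that of Pot1b on the background correction.

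**Figure D1:**
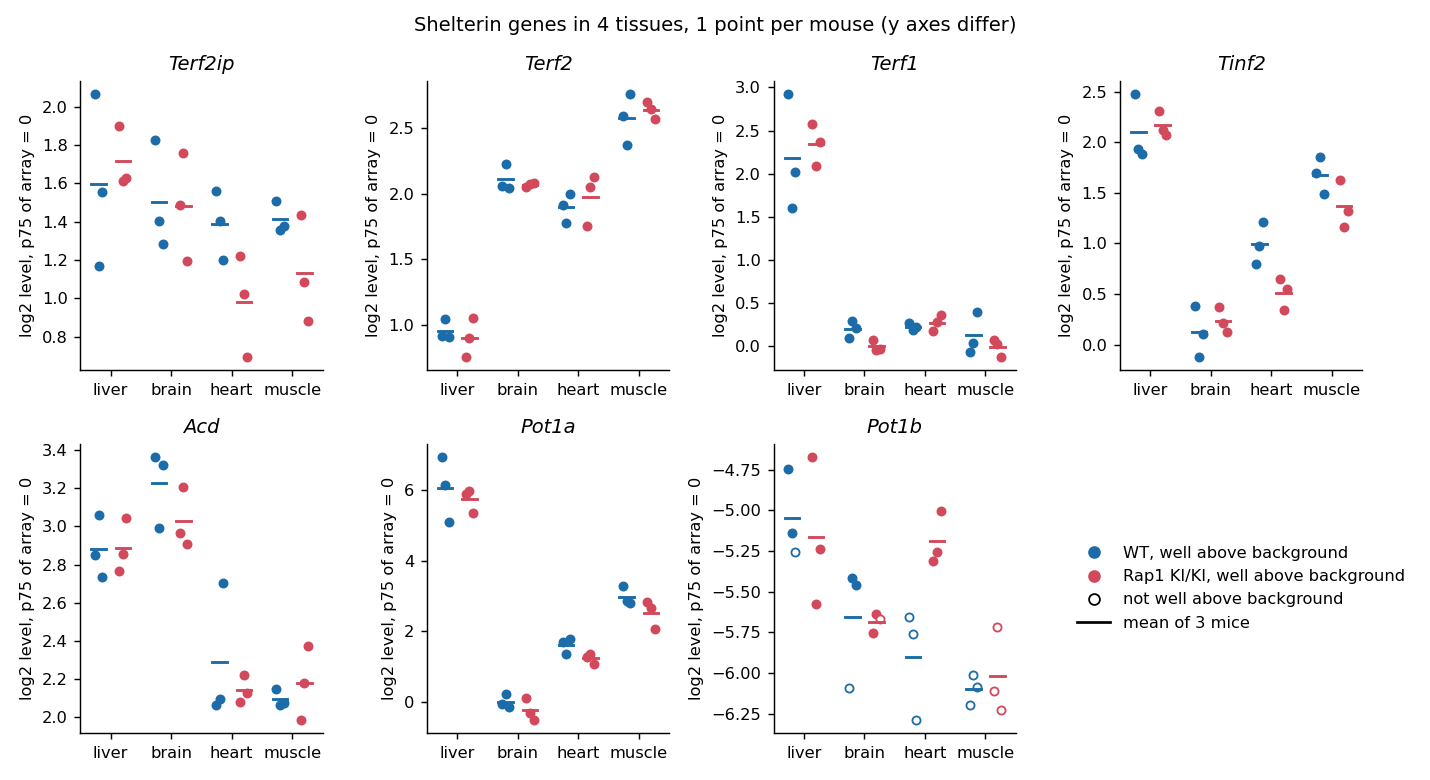
Log2 level of each shelterin gene (representative probe) in liver, brain, heart and muscle, with 0 at the array's 75th percentile, 1 point per mouse for WT and Rap1 KI/KI, open where the probe was not well above background, and a bar at the mean of 3. Terf1 stands apart in liver, Pot1a falls from liver through muscle and heart to brain, and Pot1b is open on all 6 muscle arrays.

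Terf1, whose product TRF1 binds the repeat and supports its replication, was a liver-high transcript. Its levels in WT liver were 2.92, 1.61 and 2.03, and in Rap1 KI/KI liver 2.57, 2.09 and 2.37. On the other 18 arrays it lay between -0.13 and 0.40, without overlap with liver. In WT mice liver exceeded brain by 1.99 (SE 0.30, adjusted p = 0.000118), heart by 1.96 (adjusted p = 0.000203) and muscle by 2.06 (adjusted p = 0.000129), or 3.96-fold, 3.89-fold and 4.17-fold. In Rap1 KI/KI mice the same differences were 2.34, 2.07 and 2.35. Brain, heart and muscle were not told apart in either genotype, with differences of at most 0.28. All 6 liver differences stayed past the threshold when the slide was entered as a block, with adjusted p from 0.000205 to 0.0475.

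Tinf2, the bridge of the complex, ran in the order liver, muscle, heart and brain. WT levels were 2.47, 1.93 and 1.88 in liver, 1.69, 1.85 and 1.49 in muscle, 0.80, 0.98 and 1.21 in heart, and 0.38, -0.12 and 0.11 in brain. Rap1 KI/KI levels were 2.31, 2.12 and 2.07 in liver, 1.62, 1.16 and 1.32 in muscle, 0.65, 0.34 and 0.55 in heart, and 0.37, 0.21 and 0.13 in brain. In WT mice no 2 tissues overlapped, although heart and muscle missed the threshold (adjusted p = 0.0521). Heart and brain differed in WT (0.87, SE 0.24, adjusted p = 0.00867) but not past the threshold in Rap1 KI/KI mice (0.28, adjusted p = 0.231), while liver and muscle differed in Rap1 KI/KI (0.80, adjusted p = 0.00357) and not past it in WT mice (0.42, adjusted p = 0.156). Whether the genotypes differ in this was tested as an interaction, given further on. Liver over brain was 1.97 in WT (SE 0.24, 3.93-fold, adjusted p = 1.96e-05) and 1.93 in Rap1 KI/KI mice. Its other probe gave the same order in both genotypes and correlated with the first at r = 0.97 over the 24 arrays, but its calls were not the same. On it heart over brain passed in WT (1.12, adjusted p = 0.000901) and in Rap1 KI/KI mice (0.60, adjusted p = 0.0257). Liver over muscle passed in neither (0.25, adjusted p = 0.333, and 0.40, adjusted p = 0.104). Muscle over heart passed in WT mice on this probe (0.70, adjusted p = 0.0306). On the representative probe with the slide as a block, liver over brain stayed past the threshold (1.71 and 1.79). Liver over heart in WT mice then fell to 0.82 (adjusted p = 0.160) and liver over muscle in Rap1 KI/KI mice to 0.65 (adjusted p = 0.392). Liver over muscle in Rap1 KI/KI mice was also lost without KI2 (0.71, adjusted p = 0.0734), and heart over brain in WT mice without WT2 (adjusted p = 0.113) or WT3 (adjusted p = 0.0984).

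Pot1a showed the widest tissue range of the members on its single probe. WT levels were 6.95, 6.14 and 5.11 in liver, 3.27, 2.86 and 2.80 in muscle, 1.69, 1.36 and 1.77 in heart, and -0.07, 0.21 and -0.16 in brain. In Rap1 KI/KI mice they were 5.91, 5.97 and 5.37 in liver, 2.83, 2.66 and 2.05 in muscle, 1.27, 1.34 and 1.08 in heart, and 0.09, -0.32 and -0.51 in brain. No pair of tissues overlapped. Liver exceeded brain by 6.08 in WT mice (SE 0.39, 67.5-fold, adjusted p = 8.43e-08) and by 5.99 in Rap1 KI/KI mice (SE 0.26, adjusted p = 1.47e-08), and every tissue differed from every other in both genotypes. With the slide as a block, heart against muscle in WT mice no longer passed (-1.20, adjusted p = 0.170). That pair was also lost in WT mice without WT1 (adjusted p = 0.0517) or WT2 (adjusted p = 0.171), and in Rap1 KI/KI mice without KI1 or KI2 (adjusted p = 0.0830 and 0.0829).

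The Pot1a signal was shared by many other probes. Of 24546 other probes well above background on all arrays, 74 followed it with a Pearson r above 0.99 over the 24 arrays, and none followed Terf2ip, Terf2, Terf1, Tinf2 or Acd that closely. The contrast depends on the cut. At an r above 0.95 there were 434 probes for Pot1a, 299 for Terf1 and 90 for Terf2. Tinf2 had 83, Acd 7 and Terf2ip 0. The named genes nearest to Pot1a were Psme3, a proteasome activator subunit (r = 0.999), Gxylt2, a xylosyltransferase (r = 0.998), and Kcna4, a voltage-gated potassium channel (r = 0.998). They also followed it among the 3 mice of a group, with r from 0.971 to 0.988 on deviations from the group means. The 74 probes belong to 49 named genes and 25 unnamed targets. For 13 of these genes the array holds other probes well above background throughout, 19 in all, chosen for comparison after the first result was seen. Of these 19, only 1 correlated with Pot1a above 0.9, 8 correlated below 0, and the median r was 0.23. The lowest of the 19 was the other probe of Igsf9, an immunoglobulin superfamily gene (r = -0.83), at -0.16 in WT brain and -3.30 in WT liver. How well probes of one gene go together over the whole array was not counted. Among the members, r between probes of a gene ran from -0.51 (Terf2) to 0.97 (Tinf2). Whether the 74 probes share a sequence or a transcript with that of Pot1a was not tested, so the tissue order of Pot1a is that of its probe. Correlations across arrays of 4 tissues mostly repeat the tissue means and are given as a description.

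**Figure D2:**
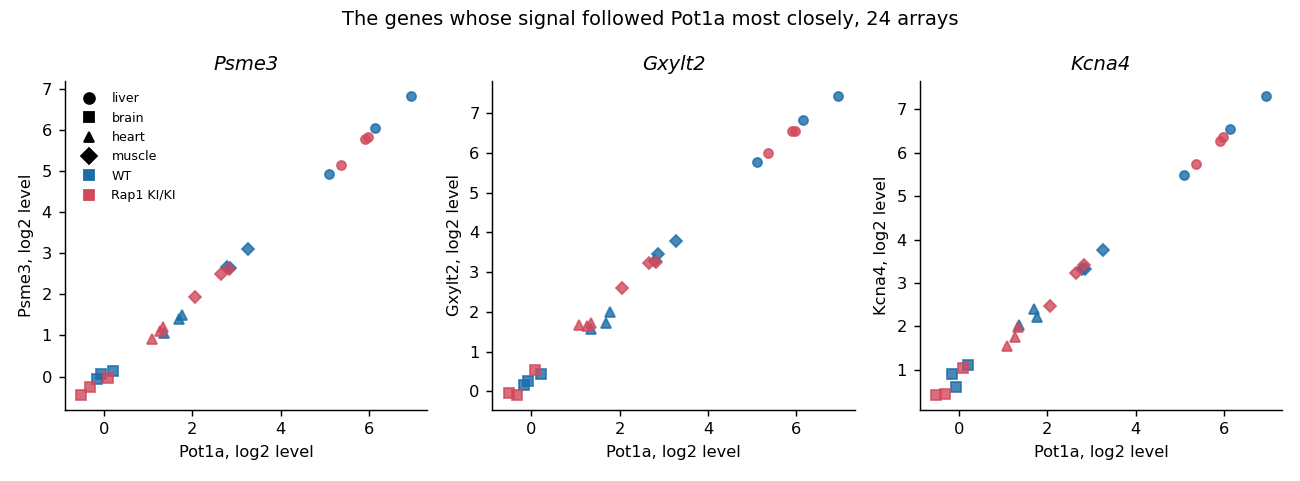
Log2 levels of Psme3, Gxylt2 and Kcna4 against the Pot1a probe on all 24 arrays (0 is the array's 75th percentile), with shapes for tissues and colours for genotypes. The points of every panel lie along a line from brain to liver, with r of 0.999, 0.998 and 0.998.

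Acd, which encodes TPP1, the TIN2-bound partner of POT1 that also recruits telomerase, was highest in brain and liver. WT levels ranged from 2.99 to 3.36 in brain, 2.74 to 3.06 in liver, 2.07 to 2.70 in heart and 2.07 to 2.15 in muscle. Brain and liver were not told apart (0.35 in WT, adjusted p = 0.193, and 0.14 in Rap1 KI/KI mice, adjusted p = 0.505), nor were heart and muscle (0.19 and 0.04). Brain exceeded heart by 0.94 (SE 0.23, adjusted p = 0.00409) and muscle by 1.13 (adjusted p = 0.00114) in WT mice, and by 0.88 and 0.85 in Rap1 KI/KI mice. Liver over heart in WT mice was 0.59 with an adjusted p of 0.0470, and with the mouse as a block the same difference had an adjusted p of 0.0680. With the slide as a block, brain over muscle in Rap1 KI/KI mice was lost (0.86, adjusted p = 0.115), while brain over heart passed in both genotypes. Brain over heart was lost in WT mice without WT1 (0.76, adjusted p = 0.0682) and in Rap1 KI/KI mice without KI2 (0.83, adjusted p = 0.0558), and liver over heart in WT mice without WT1 (adjusted p = 0.206) or WT2 (adjusted p = 0.344). Brain over muscle in Rap1 KI/KI mice was lost without KI2 too (adjusted p = 0.0673).

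Terf2, the anchor of RAP1, gave probes that did not agree. The representative probe (A_55_P2034345) was lowest in liver, 0.92, 1.04 and 0.91 in WT mice, and highest in muscle, 2.59, 2.37 and 2.76. Muscle exceeded liver by 1.62 in WT (SE 0.19, adjusted p = 2.01e-05) and 1.73 in Rap1 KI/KI mice, and brain and heart were above liver on this probe too, although with the slide as a block liver against heart missed the threshold (adjusted p = 0.0989 in WT and 0.0718 in Rap1 KI/KI mice). A second probe of the same transcript record (A_52_P391210) was highest in liver, -0.98 on average, against -1.56 in muscle, -1.90 in brain and -2.11 in heart, and a further probe, for another Terf2 transcript record (A_55_P2034350), was highest in heart (0.35) and lowest in brain (-0.75). The correlations among the 3 over 24 arrays were -0.51, -0.22 and -0.14. Liver minus brain was -1.15 on the representative probe in WT mice and 0.09 on the mean of the 3 probes (adjusted p = 0.670). On that mean liver minus muscle was -0.35 in both genotypes (adjusted p = 0.124 in WT and 0.0854 in Rap1 KI/KI mice) and liver minus heart -0.13 in WT mice (adjusted p = 0.572), so that the calls of the representative probe are given for that probe and no tissue order is given for the gene. The array files used here give no exon for a probe, and no probe sequence was used.

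Terf2ip, the gene that carries the mutation, was nearly even across tissues on its representative probe but not on its other probe. WT levels were 2.07, 1.17 and 1.56 in liver, 1.83, 1.40 and 1.28 in brain, 1.56, 1.40 and 1.20 in heart, and 1.51, 1.36 and 1.38 in muscle, and all 4 tissues overlapped. On this probe no pair of WT tissues differed past the threshold, and the largest difference was 0.21 (95% interval -0.35 to 0.77, liver minus heart). In Rap1 KI/KI mice the levels were 1.90, 1.61 and 1.63 in liver, 1.49, 1.76 and 1.20 in brain, 1.22, 1.02 and 0.69 in heart, and 1.44, 1.09 and 0.88 in muscle. Liver then exceeded heart by 0.74 (SE 0.23, adjusted p = 0.0177) and muscle by 0.58 (adjusted p = 0.0478), and both differences missed the threshold with the slide as a block (0.58, adjusted p = 0.379, and 0.14, adjusted p = 0.891). Liver over heart had an adjusted p of 0.126 without the hearts of KI1 and KI3, and liver over muscle one of 0.144 without the muscle array of KI3, and both calls were lost without any 1 of the 3 mice (adjusted p from 0.0591 to 0.183). The other Terf2ip probe was highest in brain in both genotypes, -0.85 ± 0.24 (SD, n = 3) in WT brain against -1.97 to -1.63 for the means of the other WT tissues, and correlated with the first at only r = 0.16. On it WT liver minus brain was -1.12 (SE 0.32, adjusted p = 0.00971) and WT brain minus heart 0.96 (adjusted p = 0.0254), and in Rap1 KI/KI mice liver minus brain was -1.14, brain minus heart 1.29 and brain minus muscle 0.90, all past the threshold.

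**Figure D3:**
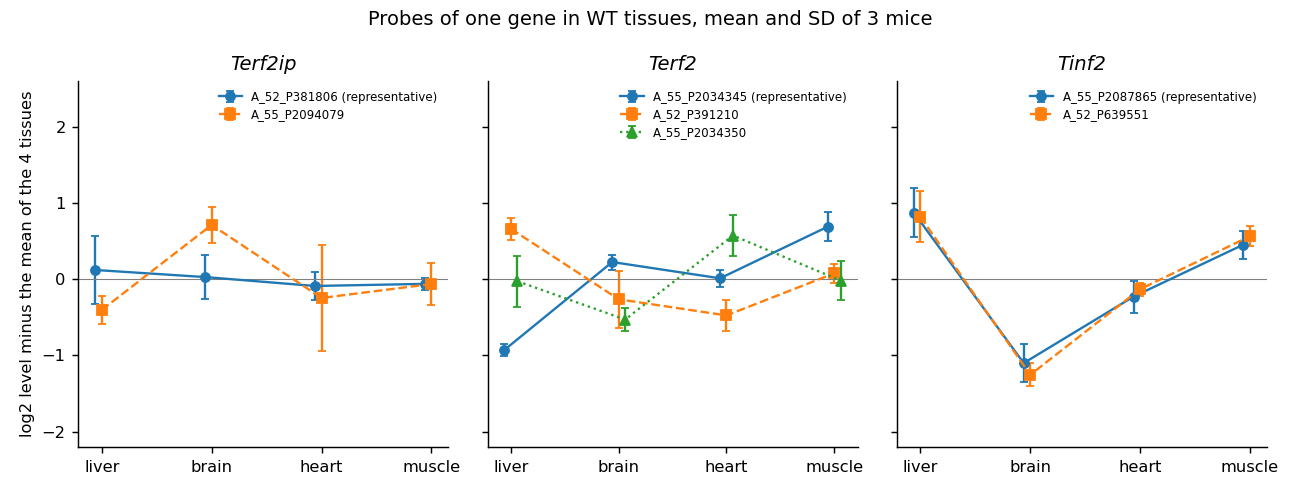
Mean and SD of 3 WT mice for each probe of Terf2ip, Terf2 and Tinf2, as the log2 level minus that probe's own mean over the 4 tissues. The Tinf2 probes run together (r = 0.97), whereas liver is the lowest tissue for one Terf2 probe and the highest for another.

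Pot1b stood near the limit of detection, well above background on 2 of 3 WT and 3 of 3 Rap1 KI/KI liver arrays, on 2 of 3 brain arrays in each genotype, on 3 Rap1 KI/KI but no WT heart arrays, and on no muscle array. Its tissue order is therefore not settled here. In WT mice the fit put liver (-5.05 ± 0.27, SD, n = 3) above heart by 0.85 (adjusted p = 0.0173). It put liver above muscle by 1.05 (adjusted p = 0.00506). In Rap1 KI/KI mice liver was above muscle by 0.86 (adjusted p = 0.0109). Heart (-5.19) was also above muscle (-6.02, adjusted p = 0.0294). The probe entered the WT fit through liver and brain arrays only. The lower tissue of each pair was well above background on no array of that genotype, nor was the liver array of WT3. These differences are thus neither measured amounts nor lower bounds. After another background correction, normexp, liver minus muscle turned to -0.32 in WT and -0.54 in Rap1 KI/KI mice, so the direction depends on how background is removed. Liver over heart in WT mice was also lost without WT3 (adjusted p = 0.104), liver over muscle in Rap1 KI/KI mice without KI1 (adjusted p = 0.146) or KI3 (adjusted p = 0.0783), and heart over muscle without any 1 of the Rap1 KI/KI mice (adjusted p from 0.0757 to 0.211).

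Counted by pairs of tissues, 15 of the 23 calls of members in WT mice (65.2%) and 17 of 27 in Rap1 KI/KI mice (63%) were in pairs with liver, beside 54.6% and 57.5% of the calls over all probes. In WT mice 4 of 7 members differed between liver and brain (67.6% of all probes), 6 between liver and heart (51% of all probes), 5 between liver and muscle (55.4%), 3 between brain and heart (56%), 3 between brain and muscle (59%) and 2 between heart and muscle (29.4%). In Rap1 KI/KI mice the counts were 4 (70.8%), 6 (59%), 7 (61.9%), 2 (56.5%), 4 (58.4%) and 4 (26.8%), in the same order. On the representative probes liver was the higher tissue for 5 of the 6 members called against heart in either genotype, the exception being Terf2. The share of all probes higher in liver than in heart was not counted, so this count is not read as a property of the members. In WT mice it includes Pot1b. The second Terf2 probe was higher in liver (1.14 in WT, 0.86 in Rap1 KI/KI mice), and the third was lower, not past the threshold (-0.60 and -0.23). The median of the members was 0.85 (WT) and 0.75 (Rap1 KI/KI) against medians of 0.03 and -0.02 over all probes. The WT median is the value of Pot1b, which is counted here though well above background on no WT heart and no muscle array. Of 42 comparisons of a member between a pair of tissues, 23 passed in WT and 27 in Rap1 KI/KI mice. The 21 that passed in both (of the 23 and of the 27) all had the same direction. Tissue and slide were largely bound together, since all liver arrays lay on 1 slide and all muscle arrays on another, and the slide was therefore also entered as a block. Then 5 members differed between liver and brain in WT (60.5% of all probes) and 4 in Rap1 KI/KI mice (55.2%), and 3 between brain and heart in WT (57.3%) and 2 in Rap1 KI/KI mice (47.4%). With that block 3 members differed between liver and heart in WT (36.3% of all probes) and 3 in Rap1 KI/KI mice (26.6%), and 3 between liver and muscle in WT (33.6%) and 3 in Rap1 KI/KI mice (20.4%). For brain and muscle 3 were left in WT (45.7%) and 1 in Rap1 KI/KI mice (31.5%), and for heart and muscle 0 in WT (24.2%) and 1 in Rap1 KI/KI mice (13%). The count for heart and muscle was also 0 in Rap1 KI/KI mice without KI1 or KI2 and in WT mice without WT1 or WT2 (1 without WT3). The share of all probes with a mouse left out was not counted. Within a slide, WT liver (3 arrays) exceeded the WT brain array beside it (1) by 2.08 for Terf1, 1.71 for Tinf2 and 6.14 for Pot1a, and liver minus brain there was -1.10 for Terf2, -0.48 for Acd and -0.23 for Terf2ip.

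**Figure D4:**
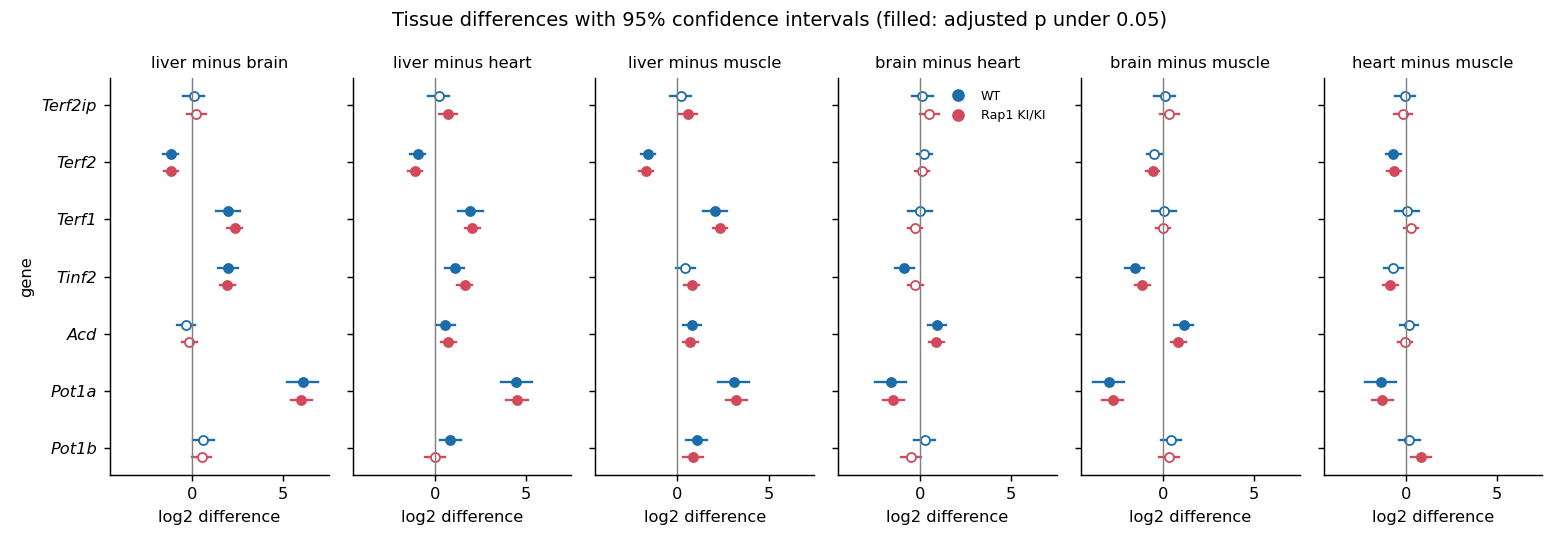
Log2 differences between tissues for each shelterin gene (representative probe), with 95% confidence intervals from the limma fits of 12 WT and 12 Rap1 KI/KI arrays, filled where the adjusted p was under 0.05. Pot1a is filled in all 6 panels in both genotypes, and Terf2 is filled and left of 0 in the 3 liver panels.

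The question whether the knock-in changes the transcripts of the complex itself was addressed by comparing 3 Rap1 KI/KI with 3 WT mice in each tissue. In no tissue did a member reach an adjusted p of 0.05 (limma, lowest adjusted p 0.646), nor did any probe of the array, with 0% called of 35239 in liver, 37835 in brain, 34844 in heart and 32378 in muscle. At an unadjusted p under 0.05 the counts over all probes were 750, 992, 2616 and 802. Pot1b in heart passed the filter only through the Rap1 KI/KI arrays and is left out of these counts. None of the other 26 differences tested among members had an unadjusted p under 0.05. They ran from -0.48 to 0.16, and 24 of the 26 had a 95% interval that lay within 1 log2 unit of 0. Changes smaller than these intervals were not detectable with 3 mice a group.

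Terf2ip in Rap1 KI/KI minus WT mice was 0.12 in liver (95% interval -0.52 to 0.75), -0.02 in brain (-0.60 to 0.55), -0.41 in heart (-0.95 to 0.14) and -0.28 in muscle (-0.78 to 0.22). The other probe gave -0.20, -0.17, -0.50 and -0.29. The genotypes overlapped on both probes in every tissue. In muscle, marker sums of other cells separated the genotypes without overlap: red cell markers (7.04 to 7.83 in WT, 8.06 to 8.65 in Rap1 KI/KI mice), leukocyte markers (1.59 to 2.34 and 2.54 to 4.01) and markers of cycling cells (-1.34 to -0.76 and -0.18 to -0.02). Of the 5 cycling markers, 1 to 2 were well above background on a WT muscle array. Cycling markers separated the genotypes in liver too (-0.23 to 0.02 in WT, 0.51 to 0.70 in Rap1 KI/KI mice). The part of these markers in the liver and muscle differences was not tested. The sums of every marker list were compared in each tissue, and those named here and for heart are the ones that separated the genotypes. With 3 mice against 3 the smallest p an exact test can give is 0.1, so such separations are given as a description. For Terf2 the differences lay between -0.05 and 0.08 on the representative probe, and their 95% intervals reached from -0.49 at the lowest to 0.57 at the highest. On its second probe the 3 Rap1 KI/KI livers lay below the 3 WT livers (-0.39, SE 0.20, adjusted p = 1.000), and on the third the 3 Rap1 KI/KI hearts lay below the 3 WT hearts (-0.25, adjusted p = 0.756).

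Among members measured in both genotypes, the 3 mice of one did not overlap with the 3 of the other for 2 of 6 in heart (14.7% of all probes), 0 of 7 in liver (5.85%), 1 of 7 in brain (7.74%) and 0 of 6 in muscle (6.45%). Tinf2 in heart was 0.80, 0.98 and 1.21 in WT and 0.65, 0.34 and 0.55 in Rap1 KI/KI mice, lower by 0.48 (SE 0.21, 95% interval -0.99 to 0.02, adjusted p = 0.646), and lower by 0.36 on its other probe, also without overlap. Pot1a, with the reading of its probe given above, differed by -0.38 (SE 0.21, adjusted p = 0.667). Pot1b was at -5.66, -5.76 and -6.29 on the WT hearts, none of them well above background, and at -5.31, -5.25 and -5.00 on the Rap1 KI/KI hearts, and after normexp the difference between the means was -0.00. In brain, Terf1 was at 0.10, 0.29 and 0.21 in WT and at 0.08, -0.04 and -0.03 in Rap1 KI/KI mice, lower by 0.20 (SE 0.16, adjusted p = 1.000).

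Fat markers separated the genotypes in heart (0.11 to 4.90 in WT, 5.14 to 8.50 in Rap1 KI/KI mice), and so did skeletal muscle markers, in the other direction (6.28 to 7.56 and 4.81 to 6.16). The heart differences were therefore also taken without the hearts of KI1 and KI3, the highest in fat markers. With KI2 as the only Rap1 KI/KI heart, its spread assumed to be that of the WT hearts, Tinf2 differed by -0.65 and Pot1a by -0.26. On the slide that held 2 hearts of each genotype Tinf2 differed by -0.39, and on the other, with 1 of each, by -0.67. Between the 5-month-old pair of mice it differed by -0.15, and between the 2-month-old mice, 2 a genotype, by -0.65. The part of fat, skeletal muscle, slide and age in these differences was not tested. Whether the genotype difference varied with the tissue was tested over all 24 arrays, and the interaction passed for 0 of 7 members (0% of 43674 probes, 1284 at an unadjusted p under 0.05), with unadjusted p of 0.111 or above on the representative probes.

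**Figure D5:**
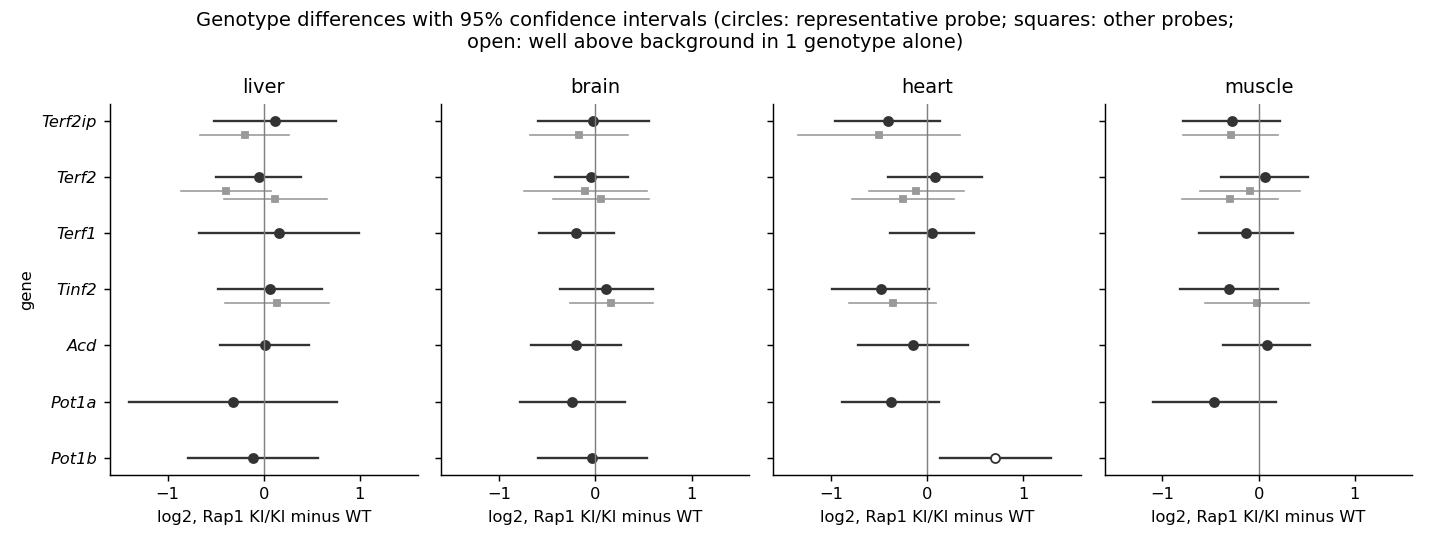
Rap1 KI/KI minus WT, in log2 units, with the 95% confidence interval, by tissue, for each shelterin gene, with circles for representative and squares for other probes (3 mice a group). The open circle is Pot1b in heart, not well above background in WT mice. All filled points have intervals that include 0, and Pot1b was not tested in muscle, where no array was well above background.

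Genes that work beside shelterin were counted from lists of 26 partners: nucleases and helicases of the telomere (8 genes), the MRN complex with the kinases ATM and ATR (5), regulators of TRF1 and TRF2 such as the tankyrases (7), other proteins that bind the repeat (3) and the meiotic attachment complex (3). None of the 23 or 24 partners tested in a tissue differed between genotypes at an adjusted p of 0.05 or at an unadjusted p under 0.05, with medians from -0.07 in muscle to 0.11 in liver. Across tissues 16 of 24 tested partners passed the F test in WT and 21 of 25 in Rap1 KI/KI mice, 15 of them in both, beside 81.8% and 86.7% of all probes. Fbxo4, a subunit of a ubiquitin ligase that acts on TRF1, was highest in liver (3.28 ± 0.32, SD, n = 3) and lowest in brain (0.67 ± 0.17) in WT mice. Tnks2, a tankyrase that releases TRF1 from telomeres, was highest in muscle (4.72 ± 0.03) and lowest in brain (2.74 ± 0.22). Pinx1, a TRF1-binding inhibitor of telomerase, was highest in heart (5.99 ± 0.50) and lowest in muscle (2.66 ± 0.23). Gnl3l, a nucleolar GTPase that binds TRF1, was highest in brain (-0.33 ± 0.34) and lowest in liver (-2.56 ± 0.41). Zbtb48, which encodes the repeat binder TZAP, was highest in liver (0.76 ± 0.38) and lowest in muscle (-1.17 ± 0.20). Terb1, of the meiotic complex, was well above background on all 3 WT brain arrays (-3.74 ± 0.39), on 1 WT liver array and on no other WT array. Of the MRN and kinase list, 4 of 5 genes were higher in liver than in brain in either genotype, beside 39% (WT) and 41.3% (Rap1 KI/KI) of all probes, and none lower, with medians of 0.78 and 0.79 beside 0.33 and 0.37 over all probes. The other lists were mixed. Of the repeat binders 1 was higher and 0 lower in WT liver, and 2 and 1 in Rap1 KI/KI liver, with medians of 0.43 and 1.01. Of the regulators of TRF1 and TRF2 2 were higher and 3 lower in WT liver, and 3 and 3 in Rap1 KI/KI liver. Of the meiotic genes 0 were higher and 1 lower in either genotype. Of the nucleases and helicases 1 was higher and 3 lower in WT liver, and 2 and 3 in Rap1 KI/KI liver. Of all partners 8 were higher and 7 lower in WT liver, and 11 and 8 in Rap1 KI/KI liver. Partners are given on their representative probes.

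Other genes whose levels were most like those of a member over the 24 arrays were Lage3 (r = 0.985), Trmt112 (r = 0.980) and Usf2 (r = 0.974) for Tinf2, Saa1 and Cenpl (each r = 0.976) for Terf1, Amz2 (r = 0.979), Homer1 (r = 0.976) and Fut10 (r = 0.974) for Terf2, and Atxn7l3b (r = 0.971), Nudt16l1 (r = 0.957) and Rab4b (r = 0.956) for Acd. Lage3 and Trmt112 also followed Tinf2 among the mice of a group (r = 0.884 and 0.832 on deviations from the group means). Terf2ip, whose representative probe was nearly even across WT tissues, reached 0.873 with Vta1 at most on that probe. Saa1, an acute-phase gene of liver, was at 6.08 in WT liver and at -0.71 or below in the other WT tissues, the same split as Terf1. Among the members themselves, the highest correlation was that of Tinf2 with Pot1a (r = 0.943) and the lowest that of Terf2 with Terf1 (r = -0.891). These correlations rest on 24 arrays of 4 tissues from 6 mice, which share mice and slides.

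The promoters of Tinf2 and Pot1a are shown because their signals moved together across tissues, although the Pot1a signal is that of many probes. RefSeq entries on build GRCm38.p6 were found for 6 of the 7 members. The stretch from 250 bases before the transcript start to 10 after it is given 5′ to 3′ on the strand of the gene, with the letters TGACGTCA, the core of a cyclic AMP response element, in capitals:
Tinf2, chr14:55681808-55682067, minus strand: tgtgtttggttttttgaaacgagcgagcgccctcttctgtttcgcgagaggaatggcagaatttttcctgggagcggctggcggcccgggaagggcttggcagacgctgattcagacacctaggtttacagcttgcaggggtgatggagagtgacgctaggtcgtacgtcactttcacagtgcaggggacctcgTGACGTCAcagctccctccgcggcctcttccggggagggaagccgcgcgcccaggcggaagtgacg
Pot1a, chr6:25809209-25809468, minus strand: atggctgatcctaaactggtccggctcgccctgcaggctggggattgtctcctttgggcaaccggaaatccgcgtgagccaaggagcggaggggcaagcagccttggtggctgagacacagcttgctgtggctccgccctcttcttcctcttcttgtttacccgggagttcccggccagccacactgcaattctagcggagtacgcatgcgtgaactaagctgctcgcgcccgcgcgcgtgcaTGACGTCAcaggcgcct
The motif, chosen after both sequences had been read and equal to its own reverse complement, begins 56 bases before the start of Tinf2 and 7 before that of Pot1a. It was in no window of 300 bases of the other 4 members with an entry, and 1.79% of 32851 such windows hold it. Of the other motifs searched on both strands, TATAAA (13.6% of all windows) was in no member's window, GGGCGG (35.7%) was in those of Terf2ip, Terf2, Pot1a and Pot1b, CCGGAAG (8.86%) in those of Terf2ip, Tinf2 and Pot1b, and the telomeric repeat TTAGGG (10.6%) in that of Pot1b. These matches are letters in a window and not binding sites.

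The genes that start beside a member on the opposite strand had levels of their own. Kars, the lysyl-tRNA synthetase gene next to Terf2ip, was lowest in brain (3.83 ± 0.20, SD, n = 3, in WT mice) and highest in muscle (5.54 ± 0.08), and its r with Terf2ip over the 24 arrays was 0.04. Pard6a, a cell polarity gene next to Acd, was highest in brain (1.64 ± 0.23 in WT mice) and had an r of 0.50 with Acd. Between genotypes in heart, Kars differed by -0.41 (SE 0.22, adjusted p = 0.657) and Pard6a by -0.45 (SE 0.21, adjusted p = 0.646), beside -0.41 for Terf2ip and -0.15 for Acd.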

How the data were processed

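Total RNA of 24 tissue samples was hybridised to 1-colour Agilent mouse arrays. The authors deposited Feature Extraction scanner files, from which the processed signal intensity was used, and a table of z-scores per array (score values), which equal the standardised log10 processed signal within 0.005. Outlier spots and controls were left out, spots of a probe averaged, and the 75th percentile of log2 values subtracted. Probes were named through RefSeq accessions (28331 of 55681). Probes well above background on at least 3 arrays of a fit were tested with limma 3.58.1 (lmFit, eBayes, R 4.3.3), two-sided, with Benjamini-Hochberg adjustment over all tested probes: KI/KI against WT in each tissue, tissues within a genotype, and the interaction. The fits were tested on simulated data. Members and lists were chosen with earlier results of these data known.

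The 7 members were all named, with their nearest 3 genes by correlation (1 of them is not reported here), genes starting beside them, and the 6 partners with the widest WT range among those past the F test in both genotypes. Samples of a number came from the same mouse. Their deviations from the group means correlated at -0.21 to 0.26 (36 pairs, median 0.04), and the mouse as a block was an alternative. Normexp used median signals, since the scanner columns used here hold no mean signal. The 3 arrays a group limit the precision.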

Additional observations from a re-analysis of the deposited data

How the results depend on the processing

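No member was called between genotypes, or in the interaction, under any alternative run (quantile normalization, normexp, the deposited z-scores, no filter, well above background on all arrays, the mean over all probes, eBayes with trend and robust, all arrays in 1 fit, age or slide as a block, each mouse left out). With the mouse as a replicate block, 5 members differed between liver and heart in WT mice instead of 6 (Acd was lost), 3 between brain and heart in Rap1 KI/KI mice instead of 2 (Terf2ip was gained, adjusted p = 0.0455), and no other call of a member changed. In the interaction, with the mouse as a random replicate block, the count was 0.

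The slide as a block, chosen after seeing the data, gave 3 members between liver and heart in WT (6 without it) and 3 in Rap1 KI/KI mice (6), 3 between liver and muscle in WT (5) and 3 in Rap1 KI/KI mice (7), 1 between brain and muscle (4) and 1 between heart and muscle (4) in Rap1 KI/KI mice, 0 between heart and muscle in WT mice (2), and 4 in the Rap1 KI/KI F test (7). Normexp gave 5 members between brain and muscle in WT mice (3). Without the heart arrays of KI1 and KI3, also chosen after seeing the data, 0 members differed between heart and muscle in Rap1 KI/KI mice (4), and without the muscle array of KI3 3 did. The shares of all probes were not counted for the F test with the slide, for normexp or without these arrays. Reversed values were liver minus brain of Terf2 on the mean of its probes (0.0914 in WT, 0.0121 in Rap1 KI/KI mice) and, with normexp, Pot1b for liver minus muscle (-0.32 in WT, -0.54 in Rap1 KI/KI mice) and heart minus muscle in Rap1 KI/KI mice (-0.37). The cause was not tested.

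With 1 mouse left out, counts in Rap1 KI/KI mice ran from 1 to 2 for brain and heart (1 without KI2), 2 to 4 for brain and muscle (2 without KI2), 0 to 3 for heart and muscle (0 without KI1 or KI2), 4 to 5 for liver and muscle (4 without KI1 or KI2), 4 to 5 for liver and heart, and were 5 in the F test. In WT mice they ran from 0 to 1 for heart and muscle (0 without WT1 or WT2, 1 without WT3), 3 to 5 for liver and muscle (3 without WT2), 4 to 5 for liver and heart, 5 to 6 in the F test, and were 2 for brain and heart. The shares of all probes called with 1 mouse left out were not counted. Whether these counts, or the single calls given above as lost, fell more than those of the array is therefore not known. Normexp moved the median of all probes, from -0.06 to -0.47 for liver minus muscle in Rap1 KI/KI mice. Signal over background limits Pot1b.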
